A study of Mus musculus with 4 samples.

Results

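The genes described here are 35 genes of cholesterol and fatty acid synthesis, out of 52636 genes measured in embryonic mouse lung. They were selected by name, as enzymes and regulators of the mevalonate route, of the sterol ring steps and of fatty acid making, lengthening and desaturation. All 35 names were found in the table, none more than once, on 16 chromosomes, and all 35 passed the filter on low values. RNA was sequenced from whole lungs of C57BL/6 embryos at embryonic day 14.5. There were 2 wild-type libraries, called control 1 and control 2, and 2 libraries labelled with a Yap conditional knockout that the study's title places in the epithelium, called Yap CKO 1 and Yap CKO 2. The labels give neither the Cre driver, nor the deleted exons, nor whether embryos were pooled. No label says that the libraries of a group came from separate embryos, so the p-values measure the spread between these libraries only. A whole lung mixes epithelium with mesenchyme, vessels and blood, so fewer cells of a type and less RNA per cell cannot be told apart.

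Cells build cholesterol from acetyl units through mevalonate, isoprenoid units, squalene and lanosterol. The same acetyl units, joined by fatty acid synthase, give the saturated chains that desaturases and elongases then modify for membranes. Most genes of both routes are targets of the SREBP transcription factors, which the escort protein SCAP carries out of the endoplasmic reticulum when membrane sterol is low and which INSIG proteins hold back when it is high. In lung, the demand for such lipids is known to grow late in gestation, when type 2 cells fill with surfactant.

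Between 17756301 and 21333878 reads were counted to genes per library. The members had from 86 reads (Fdps in Yap CKO 1) to 37844 reads (Scd2 in control 1) in a library. Values are normalized read counts, that is, reads divided by 1 scaling factor per library. The normalized counts of Yap1 itself overlapped between the groups, 5686 and 3467 for controls against 3209 and 4483 for Yap CKO (limma, adjusted p = 0.683), so it does not check the labels. The lung marker Nkx2-1 was present in every library, from 2569 to 3333. The controls were unlike each other. Control 1 had almost no Xist, the transcript of the inactive X chromosome (42.6 against 42729 to 50045 in the others). It held 1726 normalized counts of the Y-linked gene Ddx3y, against 16.4 in control 2 and 5.77 and 13.05 in the Yap CKO libraries. By these genes control 1 was male and the other libraries female, so the controls did not come from the same embryo. Sex was therefore unbalanced between the groups, and its part in the differences was not tested. Control 2 carried the most heart muscle RNA, with a sum of 30925 normalized counts for 8 heart genes. The other control had 206, and the Yap CKO libraries had 7914 and 1094.

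None of the 35 genes passed the test between groups, although most stood lower in the Yap CKO libraries. The count was 0 of 35 in either direction with limma at an adjusted p under 0.05, where 1.19% of the 19472 genes tested were higher and 1.15% were lower. In both directions together, 2.33% of genes were called. EdgeR's quasi-likelihood test also called 0 members (1.05% of all genes higher, 1.02% lower). DESeq2 called Acss2 higher and 7 members lower, namely Fdft1, Sqle, Msmo1, Dhcr7, Srebf2, Scd2 and Fads2 (2.26% and 3.06% of all genes). At an unadjusted p under 0.05, 15 members lay lower and 1 lay higher (9.52% and 9.34% of all genes). The log2 difference, Yap CKO minus control on log2(normalized count + 1), was below 0 for 30 members against 50.6% of all genes, with a median of -0.29 against -0.005 for all genes. Both Yap CKO values were below both controls for 19 members, above both for 2 (Acss2 and Ggps1) and overlapped for 14. Over all genes the groups were apart with Yap CKO lower in 25.6% and higher in 25.2%. Members of 1 pathway share regulators and are not independent of each other, and the lists were not tested as sets.

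**Figure D1:**
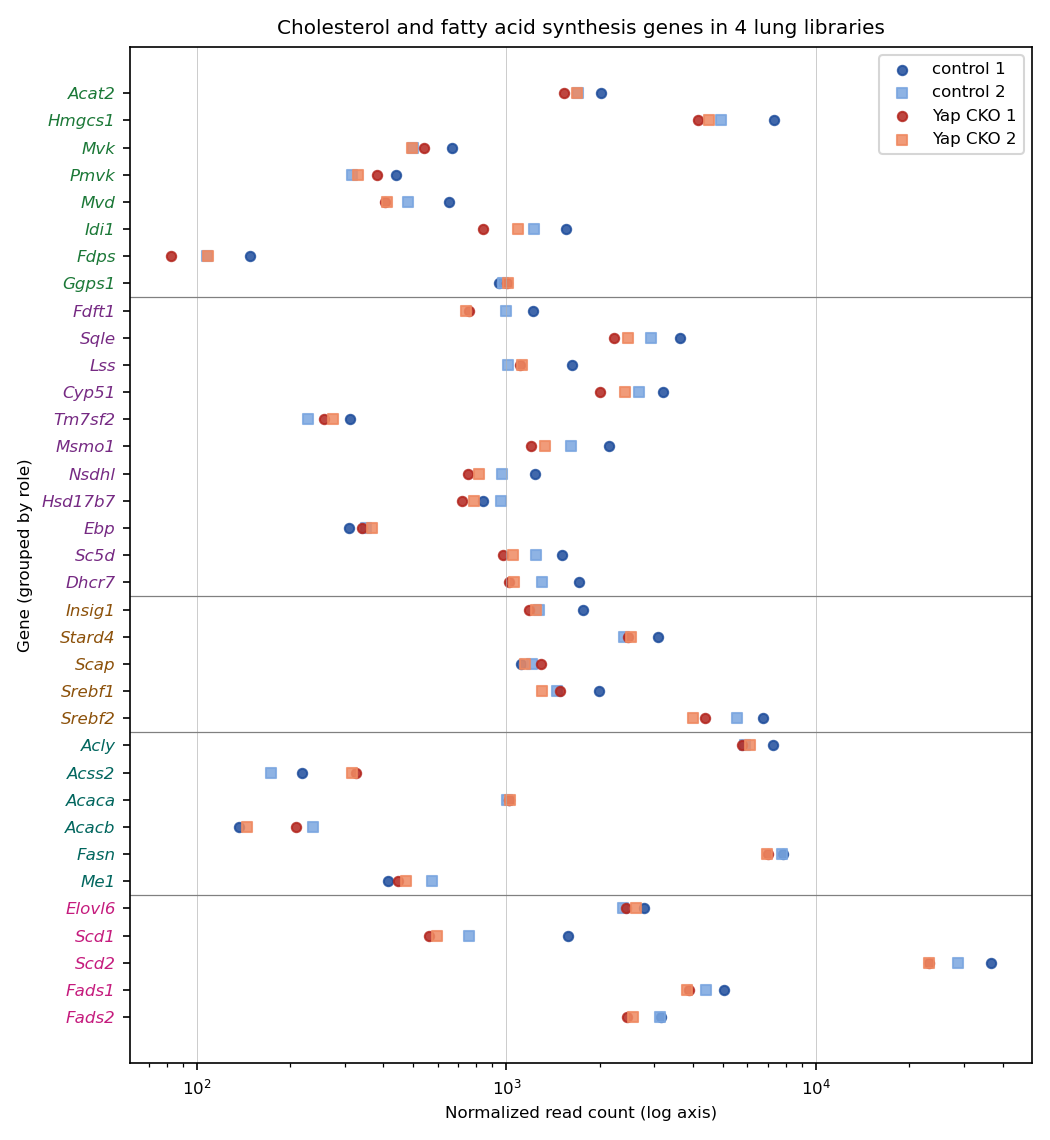
Normalized read counts (horizontal log axis) of the 35 genes, grouped by role, with 1 point per library (blue for the 2 controls, red and orange for the 2 Yap CKO libraries). Control 1 is the rightmost point for 27 genes, and Acss2 has both Yap CKO points (328 and 318) to the right of both controls (218 and 173).

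The spread within the control group was as wide as the difference between groups. Control 1 held the highest value of 27 members, against 29.4% of all genes, while control 2 held that of 3 (26.6%), Yap CKO 1 of 2 (21.7%) and Yap CKO 2 of 3 (22.4%). The median member deviated from its mean over the 4 libraries by 0.285 log2 units in control 1, 0.028 in control 2, and -0.173 and -0.121 in the first and the second Yap CKO library. Control 2 was therefore between control 1 and the Yap CKO libraries for the median member. For 18 members the gap between the controls was larger than the difference between groups, and for 7 members the gap between the Yap CKO libraries was. The share of all genes with such gaps was not counted, so these counts do not set the members apart. The median absolute gap between the controls was 0.34 log2 units for the members and 0.20 for all genes. Between the Yap CKO libraries it was 0.11 and 0.14.

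Which control was used set how many members passed. Without control 2, limma called 17 members lower and 1 higher (6.48% and 6.14% of all genes), with a median of -0.38. Without control 1, which leaves 3 libraries with high Xist, it called 2 lower and 1 higher (6.17% and 6.46%), with a median of -0.19, and 23 members had a difference below 0. In both fits the lone control is assumed to vary like the other group. Yet the median absolute gap of the members was 0.34 log2 units between the controls and 0.11 between the Yap CKO libraries. The share of all genes with a difference below 0 in the fit without control 1 was not counted. Fdft1 and Srebf2 passed lower and Acss2 passed higher in both fits. No member passed without Yap CKO 1 or without Yap CKO 2, where the shares of all genes called lower were 0.0103% and 0.0257% and those called higher 0% and 0.0103%. With the replicate number as a block no member passed (0.853% of genes higher, 0.904% lower), and with the numbers crossed, added after seeing the data, 1 passed higher and 7 lower (2.22% and 2.77%).

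**Figure D2:**
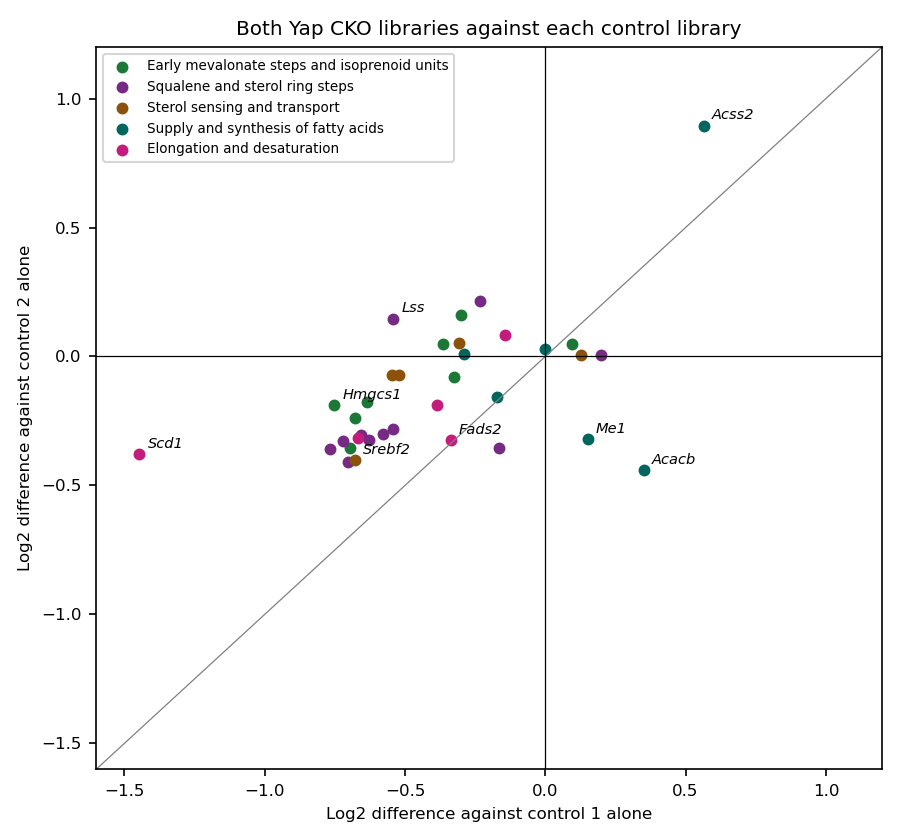
Log2 difference of both Yap CKO libraries against control 1 alone (horizontal) and against control 2 alone (vertical), with 1 point per gene coloured by role and a grey line of equal values; both axes share the Yap CKO libraries. Most points lie left of 0 and above the line: Scd1 is at -1.45 against control 1 and at -0.38 against control 2, while Lss changes side, from -0.54 to 0.15.

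Upstream sequence is shown for 4 genes, each picked for a reason given here. Only Hmgcs1, of the 28 members with a promoter in the table, holds the exact letters TCACNCCAC (N for any base). They were searched as a sterol response element. Variants of these letters were not searched, such as TCACCCCAT in the Srebf2 stretch below. Srebf2 and Msmo1 stand for the regulators and ring enzymes with differences below 0, and Acss2 has the largest difference above 0. Each run gives the 250 bases before the RefSeq start of the gene (GRCm38.p6), 5′ to 3′ on the strand of the gene, with every match in capitals to TCACNCCAC (a sterol response element), CACGTG (an E-box), CCAAT (the NF-Y box) or GGGCGG (a GC box) on either strand. NF-Y and the GC box factor Sp1 are known partners of SREBP.
Hmgcs1, chr13:119690101-119690350, plus strand: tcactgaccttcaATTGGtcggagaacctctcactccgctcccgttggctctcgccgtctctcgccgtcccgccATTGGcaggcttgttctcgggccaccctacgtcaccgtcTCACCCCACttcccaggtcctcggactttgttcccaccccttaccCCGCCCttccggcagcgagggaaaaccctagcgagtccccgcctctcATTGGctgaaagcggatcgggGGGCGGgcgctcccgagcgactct
Srebf2, chr15:82147019-82147268, plus strand: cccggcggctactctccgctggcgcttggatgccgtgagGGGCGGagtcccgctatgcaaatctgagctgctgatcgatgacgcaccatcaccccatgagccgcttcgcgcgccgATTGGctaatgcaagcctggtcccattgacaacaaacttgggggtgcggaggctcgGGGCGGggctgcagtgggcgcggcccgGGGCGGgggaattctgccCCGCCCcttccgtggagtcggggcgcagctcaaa
Msmo1, chr8:64733579-64733828, minus strand: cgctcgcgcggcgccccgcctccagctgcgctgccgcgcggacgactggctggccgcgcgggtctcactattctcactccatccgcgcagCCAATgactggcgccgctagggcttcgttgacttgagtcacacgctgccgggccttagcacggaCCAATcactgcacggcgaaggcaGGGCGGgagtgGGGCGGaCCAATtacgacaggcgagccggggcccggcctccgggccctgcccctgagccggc
Acss2, chr2:155517793-155518042, plus strand: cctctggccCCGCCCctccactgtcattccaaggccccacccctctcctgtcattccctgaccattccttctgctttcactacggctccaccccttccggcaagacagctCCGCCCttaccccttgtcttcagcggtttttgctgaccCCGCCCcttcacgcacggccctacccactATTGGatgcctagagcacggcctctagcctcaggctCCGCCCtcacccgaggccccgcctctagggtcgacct

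The table of promoters holds 35 starts for 28 of the members. The members not searched are Scd1, Scd2, Sqle, Stard4, Fads1, Fdps and Fdft1. The sterol response letters occurred in 1 of these 35 (2.86%) against 1.05% of all 32851 promoters, and the E-box in 5 (14.3%) against 6.02%. The NF-Y box occurred in 23 (65.7%) against 33.8%, and the GC box in 24 (68.6%) against 32.7%. Among the 15332 promoters of genes that passed the filter, the shares were 0.991%, 7.81%, 34.5% and 54.6% in the same order. Several starts belong to the same gene, and these matches are letters in a window, not measured binding. All 4 printed stretches hold NF-Y letters and GC box letters, that of Acss2 included.

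In the early mevalonate steps, 7 of 8 genes had a difference below 0 (50.6% of all genes), and the median was -0.31. At an unadjusted p under 0.05, 3 of them lay lower (9.52% of all genes). Hmgcs1 encodes HMG-CoA synthase, which makes the precursor of mevalonate. Control 1 held 7303 normalized counts of it and control 2 held 4937, against 4166 and 4509 in the Yap CKO libraries. The groups did not overlap, but control 1 was far above the other 3 libraries, and the log2 difference was -0.47 ± 0.18 (SE; limma, adjusted p = 0.233). Its exon bases overlap Gm48342 on the opposite strand by 12.1%, and that gene had 4.68 to 8.72 normalized counts. Idi1, the isomerase of isoprenoid units, was measured at 1551 and 1223 in controls and at 840 and 1091 in Yap CKO. Both Yap CKO values were lower, by a log2 difference of -0.52 ± 0.17 (adjusted p = 0.17). Mvd, the decarboxylase that closes the mevalonate steps, stood at 654 and 482 in controls and at 407 and 410 in Yap CKO (-0.46 ± 0.16, adjusted p = 0.208). The Yap CKO libraries were nearly equal for Mvd while the controls were 0.44 log2 units apart.

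Acat2, which joins acetyl units at the entry of the route, differed by -0.20 with groups just apart. The kinase genes Mvk (-0.16) and Pmvk (-0.07) had overlapping groups and moved to the other side of 0 without control 1 (0.05 and 0.16). Fdps, the farnesyl diphosphate synthase, stood at 148 and 108 in controls and at 82.7 and 109 in Yap CKO (-0.41 ± 0.25, adjusted p = 0.439). That is a low level for its group, and 26.7% of its exon bases are shared with Gm43738 on the same strand, a gene listed at 0 in every library. The sources used here do not say how reads in shared bases were counted. Ggps1, which makes the geranylgeranyl chain for protein anchoring and so leaves the sterol route, was at 943 and 974 in controls and at 1003 and 1010 in Yap CKO. Its groups were apart by a small margin (0.07 ± 0.09, adjusted p = 0.739). Per kilobase of merged exons, Hmgcs1 had the highest control level of the group, 1332 normalized counts, and Fdps the lowest, 30.4.

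Of the 11 genes from squalene to cholesterol, 10 had a difference below 0 (50.6% of all genes). The median was -0.44, the lowest of the 5 roles. At an unadjusted p under 0.05, 7 lay lower (9.52% of all genes). Fdft1, squalene synthase, which commits farnesyl units to sterols, stood at 1216 and 993 in controls and at 755 and 738 in Yap CKO. Both Yap CKO values were lower, with a log2 difference of -0.56 ± 0.12 (limma, adjusted p = 0.0826) and a ratio of 0.68. In DESeq2 its adjusted p was 0.0113. Part of the gene (18.3% of its exon bases) overlaps Ctsb on the opposite strand, which stood at 4395 to 5118 with a log2 difference of -0.12. Sqle, the epoxidase that oxidizes squalene, was at 3624 and 2932 in controls and at 2218 and 2473 in Yap CKO (-0.48 ± 0.13, adjusted p = 0.119). Msmo1, which strips methyl groups from the ring, was at 2150 and 1617 in controls and at 1197 and 1331 in Yap CKO (-0.56 ± 0.15, adjusted p = 0.119). For both genes control 1 was highest, control 2 next and both Yap CKO libraries below.

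The lanosterol demethylase Cyp51 stood at 3198 and 2671 in controls and at 2000 and 2410 in Yap CKO (-0.41 ± 0.13, adjusted p = 0.174), and it was the highest of these 11 genes per kilobase, at 665 in control and 499 in Yap CKO. Dhcr7, the reductase of the last step to cholesterol, was at 1712 and 1306 against 1019 and 1060 (-0.52 ± 0.14, adjusted p = 0.121). The X-linked sterol dehydrogenase gene Nsdhl was at 1237 and 968 against 754 and 815 (-0.48), and the desaturase gene Sc5d at 1508 and 1243 against 972 and 1047 (-0.44). All 4 of these genes had both Yap CKO values under both controls. Hsd17b7, a keto reductase, differed by -0.26 and was higher in control 2 than in control 1. Lss, which folds squalene epoxide into lanosterol, had 1628 normalized counts in control 1 against 1009, 1109 and 1125 elsewhere, so its value of -0.20 came from control 1 alone. Tm7sf2, a sterol reductase and the lowest per kilobase of these 11 (61.6 in control), differed by -0.01 with overlapping groups. Ebp, the X-linked sterol isomerase gene, was at 309 and 353 against 341 and 369 (0.10). Summed over the 8 early genes, Ggps1 included, and these 11, the normalized counts per kilobase were 7491 and 5894 for the controls, and 4938 and 5344 for the Yap CKO libraries.

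**Figure D3:**
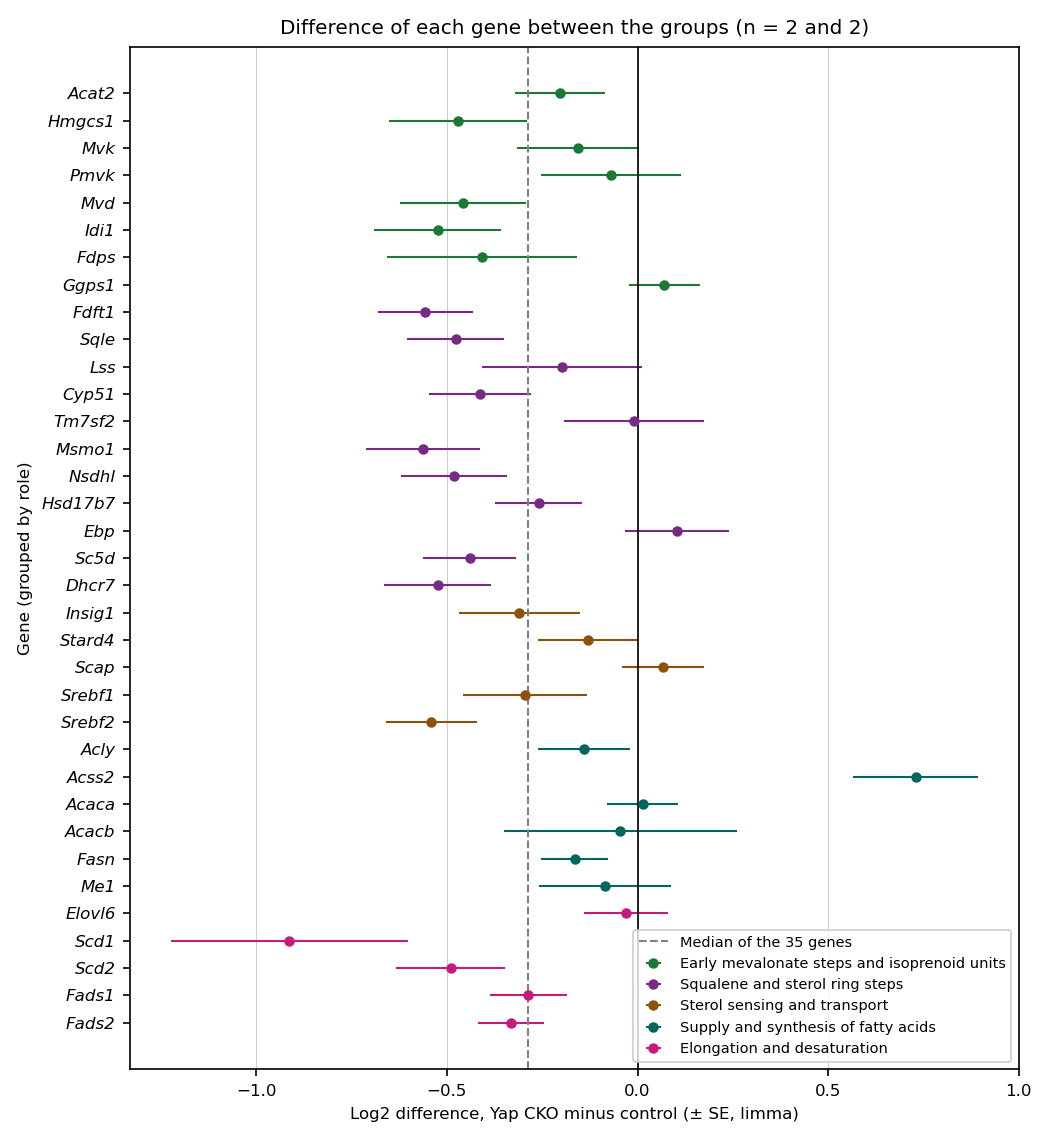
Log2 difference (horizontal axis, Yap CKO minus control, 2 libraries each) of the 35 genes by role, with the standard error from limma as bars and a dashed line at their median of -0.29. Of the 11 squalene and ring genes 7 lie left of the line, for example Msmo1 at -0.56, Acss2 lies alone at 0.73, and Scd1 at -0.91 has the longest bar.

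Among the regulators, Srebf2 had the smallest p of all 35 genes. It encodes SREBP2, the factor that drives cholesterol genes, and stood at 6719 and 5551 in controls and at 4387 and 4015 in Yap CKO. Both Yap CKO values were lower, with a log2 difference of -0.54 ± 0.12 (limma, adjusted p = 0.0811) and a ratio of 0.687. The adjusted p was 0.0835 with edgeR and 0.00103 with DESeq2. Srebf1, whose products drive fatty acid genes and some sterol genes, was at 1994 and 1461 in controls and at 1489 and 1298 in Yap CKO. Its groups overlapped (-0.30 ± 0.16, adjusted p = 0.387).

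Insig1, the anchor that holds SCAP back and is itself a target of SREBP, was at 1772 and 1276 in controls and at 1184 and 1242 in Yap CKO (-0.31 ± 0.16, adjusted p = 0.358). Control 2 and both Yap CKO libraries lay close together, and without control 1 the difference was -0.07. Scap, the escort, was at 1113 and 1213 against 1292 and 1147 (0.07 ± 0.11, adjusted p = 0.786). Stard4, a carrier that moves sterol between membranes, was high in control 1 (3084) and at 2404 to 2516 in the other libraries (-0.13). Srebf2 was the highest of these 5 genes per kilobase, with 854 for control and 585 for Yap CKO, and Scap the lowest, with 156 and 164.

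The genes that supply and join acetyl units differed from each other in direction, with 4 of 6 below 0 (50.6% of all genes) and a median of -0.06. Acss2, which makes acetyl-CoA from acetate, was the member with the largest difference above 0. It stood at 218 and 173 in controls and at 328 and 318 in Yap CKO, from 148 to 341 reads. Both Yap CKO values were higher, by 0.73 ± 0.16 on the log2 scale (limma, adjusted p = 0.0833), a ratio of 1.66. The adjusted p was 0.0456 with DESeq2 and 0.0891 with edgeR. Acss2 shares 9.1% of its exon bases with Acss2os, Ggt7 and Gss on the opposite strand, of which Acss2os had 0 to 0.93 normalized counts, Ggt7 differed by 0.38 and Gss by 0.26 without passing.

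Acly, which makes acetyl-CoA from citrate, was at 7261 and 5898 in controls and at 5780 and 6097 in Yap CKO (-0.14 ± 0.12, adjusted p = 0.592), with overlapping groups. Fasn, fatty acid synthase, was at 7832 and 7755 in controls and at 6972 and 6936 in Yap CKO. Both groups were tight and apart, and the difference was small (-0.16 ± 0.09, adjusted p = 0.375). The carboxylase gene Acaca, which makes malonyl units for Fasn, was level at 1021 and 1002 against 1018 and 1024 (0.01 ± 0.09). Its mitochondrial relative Acacb ranged from 137 to 237 across the controls and from 145 to 210 across the Yap CKO libraries (-0.04 ± 0.30). Me1, the malic enzyme that yields NADPH, was highest in control 2 (577) and at 416 to 475 elsewhere (-0.09). Per kilobase, Acly had the highest control level of this role (1246) and Acss2 the lowest of all 35 genes (19.2).

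The 5 genes of chain elongation and desaturation all had a difference below 0 (50.6% of all genes), with a median of -0.33. At an unadjusted p under 0.05, 4 of them lay lower (9.52% of all genes). Scd2, a desaturase that puts the double bond into stearate, was the most abundant member, at 5987 normalized counts per kilobase in control and 4230 in Yap CKO. It stood at 36673 and 28749 in controls and at 23093 and 23137 in Yap CKO (-0.49 ± 0.14, limma, adjusted p = 0.142). Its neighbour and paralog Scd1 was at 1582 and 754 in controls and at 561 and 598 in Yap CKO. This was the largest difference of all 35 genes and the one with the widest standard error (-0.91 ± 0.31, adjusted p = 0.191), and its controls lay 1.07 log2 units apart. Without control 2 it was -1.45, and without control 1 it was -0.38. The sources used here do not say whether reads that match both desaturase genes were counted.

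Fads2, which starts the desaturation of polyunsaturated chains, was at 3162 and 3134 in controls and at 2451 and 2555 in Yap CKO. The libraries of each group lay close together, and the log2 difference was -0.33 ± 0.09 (adjusted p = 0.113). It hardly depended on the control used, at -0.34 without control 2 and -0.32 without control 1. Fads1, the next desaturase of that pathway, was at 5037 and 4398 against 3887 and 3829 (-0.29 ± 0.10, adjusted p = 0.20). Elovl6, which lengthens palmitate, was at 2784 and 2376 against 2426 and 2616, with overlapping groups (-0.03, adjusted p = 0.912).

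**Figure D4:**
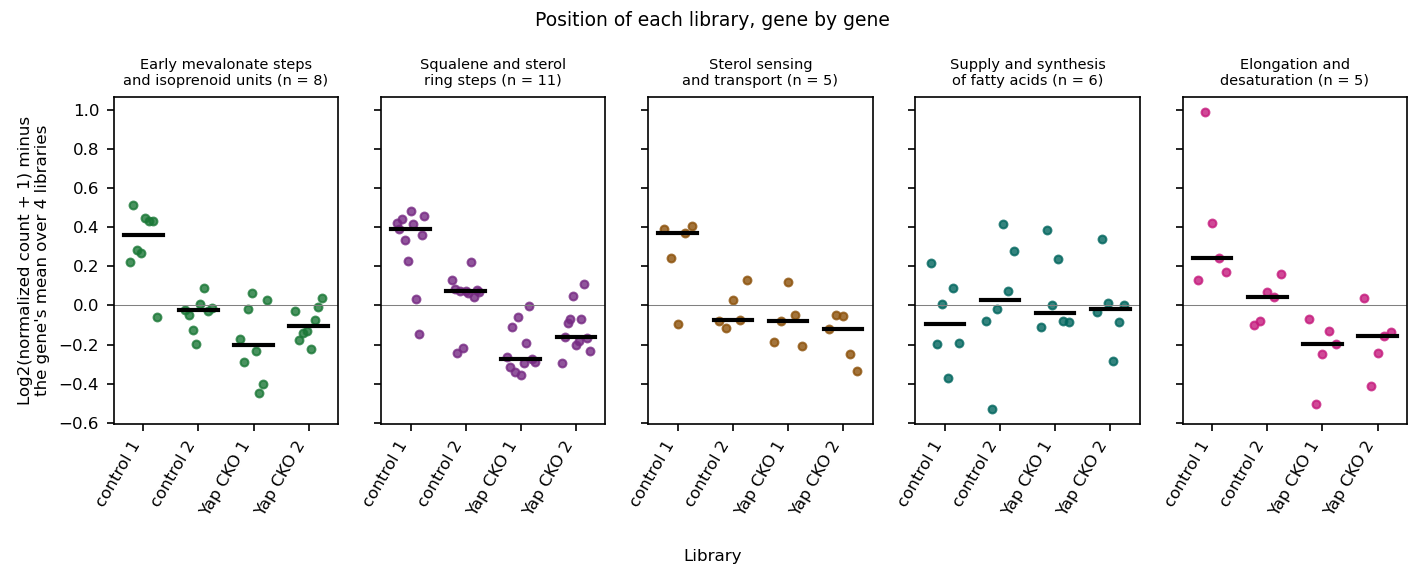
Log2(normalized count + 1) of each gene minus its mean over the 4 libraries (vertical axis), by library and in a panel per role, with 1 point per gene and a black bar at the median. In the 11 squalene and ring genes the medians are 0.391 and 0.076 for the controls and -0.274 and -0.16 for the Yap CKO libraries, while the genes of acetyl supply have medians between -0.093 and 0.027.

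Lipid genes outside the 35 were read from 5 further lists. Of 13 other genes of sterol regulation 1 rose and 12 did not pass, with a median of 0.02. The gene that rose was Gramd1b, a carrier that takes cholesterol from the plasma membrane to the endoplasmic reticulum, at 352 and 470 in controls and 929 and 819 in Yap CKO (1.10 ± 0.16, limma, adjusted p = 0.0286). Of 14 genes of sterol uptake, transport and storage 1 rose and 13 did not pass, with a median of 0.01. That gene was Soat1, which esterifies cholesterol for storage, at 2445 and 2444 in controls and at 3796 and 3596 in Yap CKO (0.60 ± 0.09, adjusted p = 0.0277). In both genes the groups were far apart compared with the gaps inside them. Their calls ended without the filter (adjusted p = 0.0961 and 0.0808 for Gramd1b and Soat1), without the intensity trend (0.127 and 0.135), without Yap CKO 1 (0.347 and 0.356) and without Yap CKO 2 (0.207 and 0.223). In these 4 fits the log2 differences were 1.01 to 1.19 for Gramd1b and 0.56 to 0.63 for Soat1. Both genes passed with edgeR (0.0394 and 0.034) and with DESeq2. They also passed without control 1 or control 2, where the spread came from the Yap CKO libraries alone.

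None of the other 3 lists held a call in the main limma fit or, among the genes named here, by edgeR. Among 12 genes of isoprenoid branches the median was -0.0005, with 4 genes at an unadjusted p under 0.05, and the smallest p values were those of Rabggtb (0.35, adjusted p = 0.147) and Coq2 (0.44, adjusted p = 0.152), which serve protein prenylation and ubiquinone synthesis. Among 21 measured of 24 further genes of fatty acid elongation and activation the median was -0.17, with 6 genes at an unadjusted p under 0.05. Acsl4, which activates arachidonate, was at 992 and 824 against 1339 and 1411 (0.60 ± 0.12, adjusted p = 0.0607). Mid1ip1, which helps acetyl-CoA carboxylase polymerize, was at 1002 and 934 against 649 and 694 (-0.53 ± 0.10, adjusted p = 0.0607). DESeq2 called these 2 genes, Acsl4 higher and Mid1ip1 lower, and limma called Acsl4 under equal totals and under quantile normalization. With the replicate numbers crossed, limma called both in the same directions. Calls in fits with a library left out are not listed for these lists. Among 18 genes of phospholipid and triglyceride synthesis the median was -0.03, with 3 genes at an unadjusted p under 0.05, of which the acyltransferase genes Agpat1 (-0.27) and Lpcat2 (0.56) had the smallest. At that threshold 9.34% of all genes lay higher and 9.52% lower. In these 3 lists 3, 1 and 2 genes lay higher and 1, 5 and 1 lower, in the order given.

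**Figure D5:**
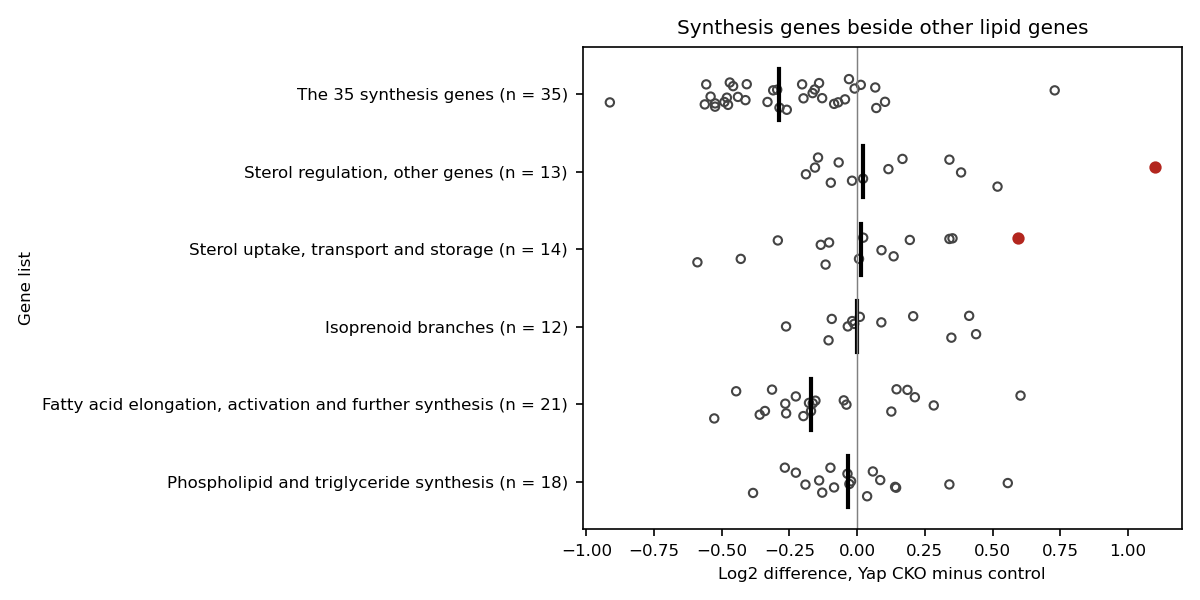
Log2 difference (horizontal axis, Yap CKO minus control) of each measured gene in the 35 synthesis genes and in 5 other lists of lipid genes, where red marks an adjusted p under 0.05 and each list's median is a black bar. The medians are -0.29 for the synthesis genes and -0.17 for further fatty acid genes, and between -0.03 and 0.02 for the other 4 lists, whose red points are Gramd1b and Soat1.

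Cell type markers were read beside these genes. The 8 lung epithelial markers had no call by limma and a median of -0.25. At an unadjusted p under 0.05, 1 of them lay higher and 4 lower, where 9.34% and 9.52% of all genes did. Their sum was 18086 and 16905 normalized counts in controls against 15023 and 15854 in Yap CKO. Of 6 type 2 cell markers 5 were called higher by limma, where 1.19% of all genes were. The sum of the 6 went from 3477 and 3950 to 10920 and 9352. All 6 markers of gut secretory cells were called higher, from a sum of 16.5 and 26.9 to 2426 and 1743. Tff3, Reg4 and Guca2a were at 0 in both controls, and Agr2 and Atoh1 had control means of 2.82 and 3.41. All but Spdef thus passed the filter only through the Yap CKO libraries, so their calls are not independent of it. Of 6 liver markers 4 passed the filter and all 4 were called higher. The sum of the 6 went from 26.2 and 65.5 to 1631 and 898. Alb, Ttr and Apoa1 had control means of 7.0, 2.34 and 2.72 and passed the filter only through the Yap CKO libraries. Their calls are therefore not independent of the filter. Summed levels of 6 mesenchymal markers were 95730 and 108095 in controls and 90827 and 81397 in Yap CKO, with no call and a median difference of 0.01. At an unadjusted p under 0.05, 2 of them lay higher (Pdgfra at 0.44 and Tbx4 at 0.24) and 1 lower (Col1a1 at -0.61, with 40799 and 50689 in controls against 32560 and 27384 in Yap CKO). Markers of endothelium (4 genes), red cell precursors (5), macrophages (4) and glia (4) had no call either (1 glial gene and none of the others at an unadjusted p under 0.05), and glial sums were 245 and 320 in controls against 475 and 431 in Yap CKO. The part of these cell types in the values of the synthesis genes was not tested. Fat cells were near absent: of 5 markers Cidec and Lep were at 0 in every library, which allows up to 3 reads or 2.80 to 3.51 normalized counts, Adipoq reached 0.96 and Plin1 1.86, and Fabp4, which vessels also express, was at 5.81 to 42.1.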

How the data were processed

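Whole-lung RNA was taken with RNeasy columns and libraries were made by BGI's standard method, per the labels. The authors deposited a normalized count (signal) per Ensembl gene, already divided by 1 factor per library. Tools named by the submitters' processing notes, with no role or order, are edgeR 3.18.1, DESeq 1.16.0, featureCounts 1.5.0-p1 and Bowtie2 2.2.9, with mm10 as the build. The annotation release and strand setting are not given in the sources used here. All values (100%) were whole multiples of 1 number per library within 0.001 reads, so reads were recovered. Totals were 21285794 and 17756301 reads for the controls, and 20552208 and 21333878 for Yap CKO. Floors of 3 reads cover counting error only.

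Symbols, positions and merged exon lengths came from GENCODE M21 (52489 of 52636 identifiers matched), promoters from RefSeq GRCm38.p6. Genes with a mean of at least 10 were tested as log2(normalized count + 1) with limma 3.58.1 in R 4.3.3 (intensity trend, two-sided, Benjamini-Hochberg over 19472 genes, called at an adjusted p under 0.05). EdgeR 4.0.16 and DESeq2 1.42.0 were run on the recovered reads. The scripts were tested on simulated data. Neither pair of replicates was a duplicate (chi-square per degree of freedom over genes 24.1 for control, 7.18 for Yap CKO).

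The members and lists were chosen with earlier results of these data known. Values per library are given for regulators and for the 3 members of each role with the smallest p, with the highest and lowest level of each role, and for other members where the text turns on them; outside the members, called genes or the 2 smallest p in each list are named.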

Additional observations from a re-analysis of the deposited data

How the results depend on the processing

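All 35 members stayed uncalled under 3 other scalings, 2 other filters, 2 other pseudocounts, no intensity trend, edgeR and the replicate block. DESeq2 called 1 member higher and 7 lower, and 441 and 596 genes in all. Without the filter 39 and 17 genes were called higher and lower, and without the trend 5 and 1. Leaving out each library in turn gave 0 to 1258 genes called higher and 2 to 1262 lower, 0 to 1 members higher and 0 to 17 lower, and member medians from -0.38 to -0.19. With the replicate block, 166 genes were called higher and 176 lower, and 0 members. Same-numbered libraries deviated in opposite ways (correlation -0.364), and with the numbers crossed, a fit added after seeing the data, 432 and 540 genes and 1 and 7 members were called higher and lower. Under equal totals, which raised the differences by a median of 0.062, 62.0% of calls were higher against 50.9%. There 27 members stayed below 0 and 17 had both Yap CKO values below both controls. The shares of all genes that did so under equal totals were not counted. Values that changed side were Tm7sf2 (0.053), Acacb (0.017) and Elovl6 (0.032) under equal totals and Elovl6 (0.025) under quantile normalization. With each library left out in turn, values crossed 0 for Mvk -0.36 to 0.050, Pmvk -0.30 to 0.16, Lss -0.54 to 0.15, Tm7sf2 -0.23 to 0.21, Stard4 -0.31 to 0.050, Scap -0.019 to 0.15, Acly -0.29 to 0.0093, Acaca -0.0001 to 0.027, Acacb -0.44 to 0.35, Me1 -0.32 to 0.15 and Elovl6 -0.14 to 0.084. The cause of these changes was not tested. Counting error was largest for Fdps, at 86 reads in Yap CKO 1.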

Other observations

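Some genes that feed or drain these routes did not pass the test and were picked after their values were seen. Vldlr, a lipoprotein receptor, stood at 1224 and 1027 in controls and at 727 and 762.5 in Yap CKO (-0.59, limma, adjusted p = 0.0647). The high-density lipoprotein receptor gene Scarb1 was at 2203 and 1917 against 1558 and 1493 (-0.43, adjusted p = 0.0981). The citrate carrier gene Slc25a1, which exports citrate for Acly, was at 994 and 761 against 648 and 628 (-0.45, adjusted p = 0.176). In the other direction, Gramd1a, a relative of Gramd1b, was at 1972 and 1552 against 2598 and 2418 (0.52, adjusted p = 0.106), and the oxysterol receptor gene Nr1h3 was at 155 and 152 against 199 and 202 (0.38, adjusted p = 0.252). All 5 had groups that did not overlap, as did 25.6% of all genes with Yap CKO lower and 25.2% with Yap CKO higher. The sterol efflux gene Abca1, by contrast, was level at 2346 and 2401 against 2306 and 2466.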
